A study of Caenorhabditis elegans with 8 samples.

Results

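The genes described are 10 cytochrome P450 genes of Caenorhabditis elegans, chosen by name: cyp-14A1, cyp-14A2, cyp-14A3, cyp-14A4 and cyp-14A5 of family 14, cyp-35A2, cyp-35A3, cyp-35B1 and cyp-35C1 of family 35, and cyp-36A1 of family 36. They are 10 of 80 P450 genes and of 20871 genes in the deposited table. Their transcripts were measured by RNA sequencing of whole adult worms, in 4 samples given mtch-1(RNAi) and 4 samples given the empty vector L4440 (EV). Both groups were fed HT115 E. coli on ampicillin and IPTG plates at 20 °C from hatching to day 3 of adulthood, and each sample pooled about 200 adults. The bacteria of the mtch-1(RNAi) group made double-stranded RNA against mtch-1, which encodes a mitochondrial carrier homolog of the outer membrane. The strain of the worms is not given in the sources used here.

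Cytochrome P450 enzymes are heme-containing monooxygenases, most of which sit in the endoplasmic reticulum membrane. They take electrons from NADPH through a P450 reductase, EMB-8 in the worm, and insert an oxygen atom into a lipophilic substrate, which is the first step in clearing many foreign compounds and a step in making signalling lipids and steroids. The worm genome holds a large P450 superfamily with many tandem copies. Several genes of the cyp-35A and cyp-35C subfamilies are known as xenobiotic-inducible genes of the intestine, the main detoxifying tissue of the worm.

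Total gene counts were 20626184 to 22748868 in the mtch-1(RNAi) samples and 18710833 to 23608608 in the EV samples. Levels are given as CPM, the counts of a gene per 1000000 counts of a library whose size was scaled by TMM, a method that adjusts for differences in RNA composition. The targeted gene mtch-1 (F43E2.7) stood at 50.5, 58.0, 34.3 and 46.1 CPM in mtch-1(RNAi) replicates 1 to 4, against 264, 287, 275 and 291 CPM in EV replicates 1 to 4, which is the direction the labels give. No sample was left out.

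All 10 transcripts had a higher mean in mtch-1(RNAi) than in EV, and 6 of them rose by the test: cyp-14A1, cyp-14A2, cyp-14A4, cyp-35A3, cyp-35C1 and cyp-36A1. A gene is said to rise or fall when its edgeR adjusted p, taken over all 13252 genes tested, was under 0.05. Of all genes tested, 1325 or 10% rose and 1728 or 13% fell, so that 3053 or 23% passed in either direction. All 10 P450 genes passed the filter on low counts. Their median log2 fold change was 0.86, against 0.014 over all genes tested, of which 52.3% had a value above 0. The 10 genes were chosen with earlier results of these data known. Setting them beside all genes tested, here and below, is therefore no test of the set. Of all genes tested, 1.83% both passed the test and rose at least 2-fold. Among the 10, 3 genes did so, cyp-14A4, cyp-35A3 and cyp-36A1. Of these cyp-36A1 was at the limit, with a log2 fold change of 1.02 that was 0.96 without mtch-1(RNAi) replicate 1, 0.99 without EV replicate 1 and 0.90 without EV replicate 3. In whole worms a change in RNA per cell and a change in the number of cells that make it cannot be told apart.

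In 4 of the 10 genes, cyp-14A1, cyp-14A4, cyp-35C1 and cyp-36A1, every mtch-1(RNAi) sample lay above every EV sample, a separation seen in 11.7% of genes tested. In a fit with the replicate number as a block, which compares same-numbered samples, 9 of the 10 rose, against 1983 or 15% of genes tested, while 2264 or 17.1% fell. The 3 genes added were cyp-14A3, cyp-35A2 and cyp-35B1, and cyp-14A5 was the one that did not pass. The same-numbered mtch-1(RNAi) sample was the higher one in all 4 pairs for 9 of the genes, and in 3 of 4 pairs for cyp-14A5. The share of all genes tested that were higher in all 4 pairs was not analysed here.

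**Figure D1:**
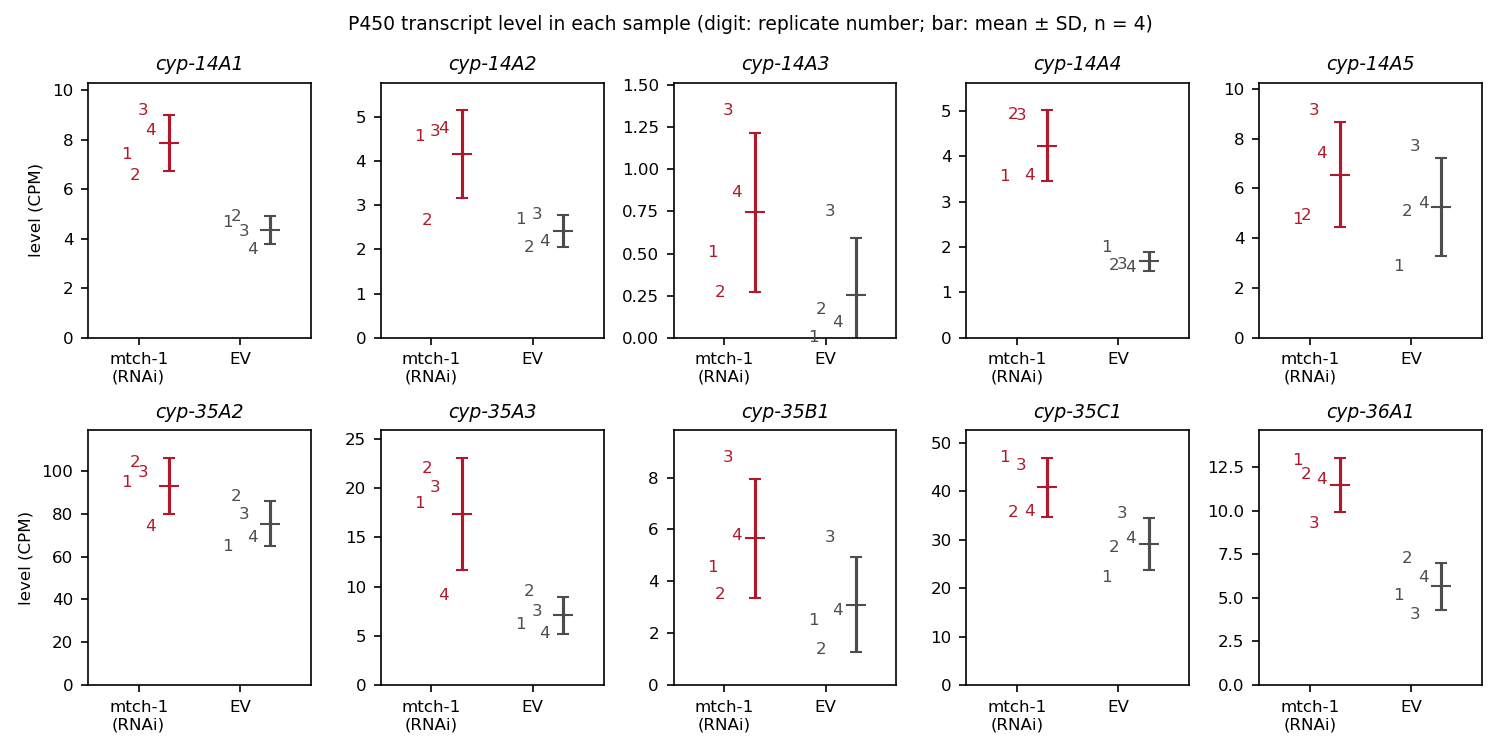
Transcript level of each of the 10 P450 genes in CPM on a linear axis that starts at 0, for mtch-1(RNAi) and EV. Each digit is 1 sample placed at its value and names its replicate, and bars give the mean ± SD of 4 samples, with the bar of cyp-14A3 in EV running below the axis. The groups stand apart in cyp-14A1, cyp-14A4, cyp-35C1 and cyp-36A1.

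**Figure D2:**
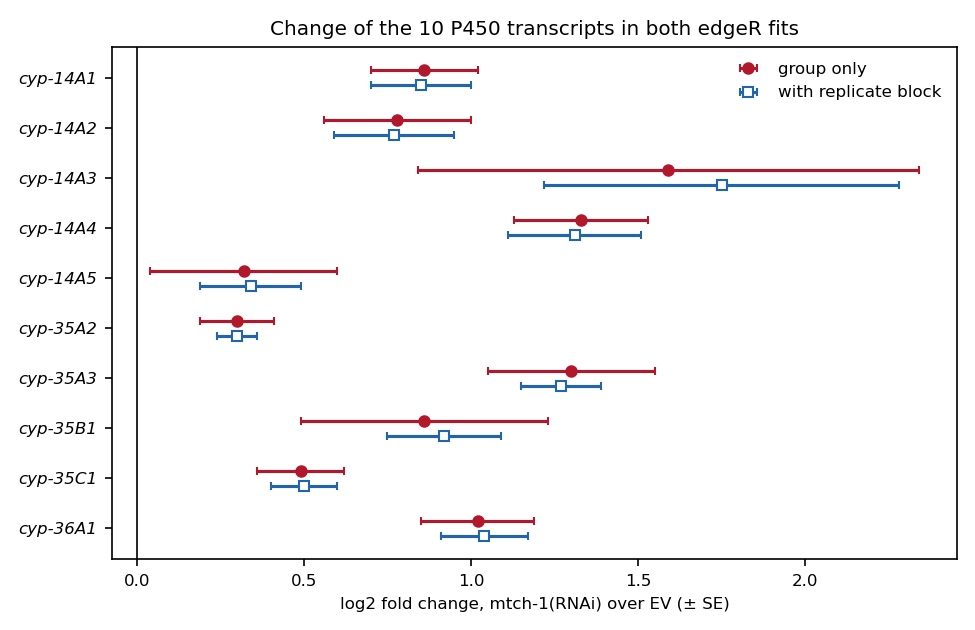
Log2 fold change of mtch-1(RNAi) over EV with its standard error for the 10 genes, from the edgeR fit with the group alone (filled circles) and from the fit with the replicate block (open squares). The values hardly differ between the fits, whereas the standard error of cyp-35B1 is 0.37 in the first and 0.17 in the second.

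To set the genes side by side, levels were also divided by gene length. Per kilobase, cyp-35A2 was the most abundant of the 10, at 57.6 ± 8.22 CPM per kilobase in mtch-1(RNAi) and 46.7 ± 6.44 in EV (SD, n = 4). Second was cyp-35C1, with 26.5 ± 3.95 CPM per kilobase in mtch-1(RNAi) and 18.9 ± 3.49 in EV. In both groups the sample ranges of these genes were clear of each other and of every other gene of the set. The third was cyp-35A3, with 11.1 ± 3.63 CPM per kilobase in mtch-1(RNAi) and 4.51 ± 1.18 in EV. Below it, cyp-14A1, cyp-14A5, cyp-36A1 and cyp-35B1 followed in an order that differed between the groups, and the ranges of neighbours in that order overlapped in both. In mtch-1(RNAi) the lowest cyp-36A1 sample (5.39 CPM per kilobase) was above the highest cyp-35B1 sample (5.16). At the bottom was cyp-14A3, with 0.492 ± 0.311 CPM per kilobase in mtch-1(RNAi) and 0.165 ± 0.223 in EV, and its range was clear of the next gene up in both groups.

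Together the 10 genes made up 161 to 212 CPM in the mtch-1(RNAi) samples and 113 to 149 CPM in the EV samples. As a share of all P450 counts this was 18.1% to 21.7% in mtch-1(RNAi) and 13.6% to 18.0% in EV. cyp-35A2 alone supplied 45.8% to 53.0% of the summed level in mtch-1(RNAi) samples, against 53.4% to 59.3% in EV samples. The summed level of the other 70 P450 genes was 720 to 763 CPM in mtch-1(RNAi) and 676 to 769 CPM in EV, where the groups overlapped.

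Of the 5 family 14 genes 4 lie in one run on chromosome X, all on the minus strand within 19.2 kb (WBcel235, 13265041 to 13284197). Their order along the chromosome is cyp-14A1 (K09A11.2, 13265041 to 13267355), cyp-14A2 (K09A11.3, 13267562 to 13269686), cyp-14A3 (K09A11.4, 13271837 to 13274202) and cyp-14A4 (R04D3.1, 13282043 to 13284197), with 7 exons each. cyp-14A1 and cyp-14A2 are 207 bases apart. The protein-coding gene phf-33 lies between cyp-14A3 and cyp-14A4, and cyp-14A5 (F08F3.7, 5421018 to 5423282, minus strand) lies alone on chromosome V.

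cyp-14A1 was the most abundant gene of this run. Its level was 7.41, 6.56, 9.19 and 8.36 CPM in mtch-1(RNAi) replicates 1 to 4, against 4.65, 4.91, 4.28 and 3.58 CPM in EV replicates 1 to 4. Every mtch-1(RNAi) sample stood above the highest EV sample. The means were 7.88 ± 1.14 CPM in mtch-1(RNAi) and 4.36 ± 0.576 CPM in EV (SD, n = 4), a log2 fold change of 0.86 (SE 0.16; edgeR adjusted p = 0.00228).

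The neighbouring cyp-14A2 rose by a like amount at a lower level. It had 4.55, 2.66, 4.66 and 4.73 CPM in mtch-1(RNAi) replicates 1 to 4 and 2.67, 2.04, 2.78 and 2.17 CPM in EV replicates 1 to 4. In mtch-1(RNAi) 3 samples lay above all EV samples, and replicate 2 lay within the EV range. The fit gave a log2 fold change of 0.78 (SE 0.22; edgeR adjusted p = 0.0216). The gene no longer passed on leaving out mtch-1(RNAi) replicate 1 (adjusted p = 0.0522), 3 (0.0522) or 4 (0.0584), EV replicate 2 (0.0521) or 4 (0.0629), or replicate 3 of both groups (0.0633).

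cyp-14A4, at the far end of the run, had the highest log2 fold change among the 6 called genes, close to that of cyp-35A3. It had 3.54, 4.92, 4.90 and 3.58 CPM in mtch-1(RNAi) replicates 1 to 4 and 1.98, 1.60, 1.61 and 1.55 CPM in EV replicates 1 to 4. The groups did not overlap, and the lowest mtch-1(RNAi) sample was well above the highest EV sample. The means were 4.23 ± 0.778 CPM in mtch-1(RNAi) and 1.68 ± 0.200 CPM in EV (SD, n = 4), a log2 fold change of 1.33 (SE 0.20; edgeR adjusted p = 0.000606).

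cyp-14A3 was near the limit of detection. Its raw counts were 12, 6, 29 and 18 in mtch-1(RNAi) replicates 1 to 4 and 0, 3, 14 and 2 in EV replicates 1 to 4. The count of 0 in EV replicate 1 allows a level of up to 0.149 CPM, counting error only. EV replicate 3 lay above mtch-1(RNAi) replicates 1 and 2, so the groups overlapped. The log2 fold change of 1.59 (SE 0.75) did not pass the test (edgeR adjusted p = 0.148), but with the replicate block it was 1.75 (SE 0.53; adjusted p = 0.0171). Without EV replicate 3 it was 3.08 (adjusted p = 0.0187). At these counts the fitted value depends on the prior count that edgeR adds.

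cyp-14A5, the family 14 gene on chromosome V, varied more within groups than between them. Its level was 4.76, 4.92, 9.14 and 7.40 CPM in mtch-1(RNAi) replicates 1 to 4 and 2.87, 5.07, 7.70 and 5.40 CPM in EV replicates 1 to 4. The groups overlapped over most of their range. The fit gave a log2 fold change of 0.32 (SE 0.28; edgeR adjusted p = 0.457), and of 0.34 (SE 0.15; adjusted p = 0.0931) with the block, so no difference between the groups was detectable. Leaving out single samples moved the value between 0.11 (without mtch-1(RNAi) replicate 3) and 0.55 (without EV replicate 3).

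The protein-coding genes beside the run on chromosome X did not pass the test. phf-33 had a log2 fold change of 0.21 (adjusted p = 0.657), K09A11.1, 452 bases from cyp-14A1, one of -0.28 (adjusted p = 0.145), and R04D3.2, 924 bases from cyp-14A4, one of -0.13 (adjusted p = 0.0964). Beside genes of the set on chromosome V, F08F3.6, 951 bases from cyp-14A5, fell (-0.24, SE 0.06; adjusted p = 0.0116), and sptl-3, 248 bases from cyp-35C1, fell (-0.34, SE 0.11; adjusted p = 0.0347). The P450 gene cyp-35A5, 435 bases from cyp-35B1, rose (0.63, SE 0.21; adjusted p = 0.044). All other tested genes within 10 kb of the chromosome V genes did not pass. Of all genes tested 13% fell and 10% rose. Leaving out mtch-1(RNAi) replicate 1 or 2 or EV replicate 2, 3 or 4 lost the sptl-3 call (0.059 to 0.113). F08F3.6 did not pass without replicate 3 of both groups (0.0735). These neighbours were chosen by position after the values of the P450 genes were known.

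The 4 family 35 genes are spread over chromosome V. cyp-35A2 (C03G6.15, 7362319 to 7364182, minus strand) lies 546 bases from cyp-35A1, and cyp-35A3 (K09D9.2, 4022609 to 4024482, plus strand) lies 7137 bases from cyp-35A4. cyp-35B1 (K07C6.4, 3939032 to 3941237, plus strand) sits between cyp-35A5 and cyp-35B2, and cyp-35C1 (C06B3.3, 13896663 to 13898487, minus strand) has no P450 gene within 10 kb. The cyp-35A genes are close paralogs, as are the cyp-14A genes on chromosome X, and reads shared between them, if any, leave their separate values uncertain.

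cyp-35A3, a gene of the xenobiotic-inducible cyp-35A subfamily, had the largest rise of the 4. It had 18.4, 22, 20.0 and 9.12 CPM in mtch-1(RNAi) replicates 1 to 4, against 6.19, 9.49, 7.44 and 5.18 CPM in EV replicates 1 to 4. In mtch-1(RNAi) 3 samples were far above the EV samples, while replicate 4 was just under EV replicate 2. The means were 17.4 ± 5.69 CPM in mtch-1(RNAi) and 7.07 ± 1.86 CPM in EV (SD, n = 4), a log2 fold change of 1.30 (SE 0.25; edgeR adjusted p = 0.00277). Between same-numbered samples the level in mtch-1(RNAi) was 2.98, 2.32, 2.69 and 1.76 times that in EV, and the order of the replicates from high to low was 2, 3, 1, 4 in both groups.

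cyp-35C1, also known as a xenobiotic-inducible gene, rose by less. Its level was 47.0, 35.6, 45.3 and 35.8 CPM in mtch-1(RNAi) replicates 1 to 4 and 22.3, 28.5, 35.4 and 30.2 CPM in EV replicates 1 to 4. The groups did not overlap, but the lowest mtch-1(RNAi) sample was only just above EV replicate 3. The means were 40.9 ± 6.09 CPM in mtch-1(RNAi) and 29.1 ± 5.37 CPM in EV (SD, n = 4), a log2 fold change of 0.49 (SE 0.13; edgeR adjusted p = 0.0183).

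cyp-35A2, whose subfamily has been linked to fat storage in the worm, carried the most reads of the set. It had 94.5, 104, 99.4 and 74.0 CPM in mtch-1(RNAi) replicates 1 to 4 and 64.9, 87.9, 79.7 and 69.1 CPM in EV replicates 1 to 4. In mtch-1(RNAi) 3 samples were above all EV samples, and replicate 4 lay inside the EV range. The log2 fold change of 0.30 (SE 0.11) did not pass (edgeR adjusted p = 0.0608). It passed with the replicate block at the same value (0.30, SE 0.06; adjusted p = 0.000688), on leaving out mtch-1(RNAi) replicate 4 (0.41; adjusted p = 0.0118) and on leaving out EV replicate 2 (0.39; adjusted p = 0.0265). In the authors' deposited table its adjusted p was 0.0424.

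cyp-35B1, known from its dependence on the transcription factor DAF-16 in long-lived insulin-signalling mutants, differed widely among replicates. Its level was 4.55, 3.50, 8.77 and 5.78 CPM in mtch-1(RNAi) replicates 1 to 4 and 2.48, 1.38, 5.67 and 2.88 CPM in EV replicates 1 to 4. Replicate 3 was the highest and replicate 2 the lowest in both groups, and the groups overlapped. The log2 fold change of 0.86 (SE 0.37) did not pass (edgeR adjusted p = 0.113), whereas with the block it was 0.92 (SE 0.17; adjusted p = 0.000319). Within same-numbered pairs the mtch-1(RNAi) sample was 1.84, 2.54, 1.55 and 2.01 times the EV sample. Without EV replicate 3 the log2 fold change was 1.31 (adjusted p = 0.0170), and without replicate 3 of both groups it was 1.02 (adjusted p = 0.0347).

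cyp-36A1 (C34B7.3, chromosome I, 8341682 to 8346023, minus strand), the single gene of family 36, rose in every pair of same-numbered samples, to 2.50, 1.66, 2.28 and 1.92 times the EV level in replicates 1 to 4. It had 12.9, 12.1, 9.28 and 11.8 CPM in mtch-1(RNAi) replicates 1 to 4 and 5.15, 7.28, 4.07 and 6.15 CPM in EV replicates 1 to 4. Every mtch-1(RNAi) sample was above every EV sample. The means were 11.5 ± 1.56 CPM in mtch-1(RNAi) and 5.66 ± 1.37 CPM in EV (SD, n = 4), a log2 fold change of 1.02 (SE 0.17; edgeR adjusted p = 0.00148). Its exons overlap figo-1 on the opposite strand by 147 bases, and the strand setting of the counting is not given in the sources used here. figo-1 fell (log2 fold change -0.27, SE 0.05; adjusted p = 0.0018), opposite in direction to cyp-36A1.

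In the worm, cyp-36A1 is known as a gene that the hypoxia factor HIF-1 lowers, with the hydroxylase EGL-9 upstream and the nuclear receptor NHR-46 downstream. Of the 5 genes listed for this axis 2 fell, against 13% of all genes tested. They were egl-9 (-0.23, SE 0.07; adjusted p = 0.0321) and rhy-1 (-0.34, SE 0.10; adjusted p = 0.0234). The genes hif-1 (0.05, adjusted p = 0.582), vhl-1 (-0.06, adjusted p = 0.835) and nhr-46 (-0.10, adjusted p = 0.342) did not pass. Leaving out mtch-1(RNAi) replicate 1 or 4 or EV replicate 1, 3 or 4 lost the egl-9 call (adjusted p = 0.0596 to 0.103), and leaving out mtch-1(RNAi) replicate 1 or 3 or EV replicate 2 or 4 did so for rhy-1 (0.0514 to 0.0749).

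Short noncoding RNA genes on the opposite strand also overlap exons of cyp-14A2 (48 bases), cyp-14A3 (76 and 99 bases) and cyp-35B1 (102 bases). These noncoding genes are not among the 20871 genes with deposited counts.

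The genes did not share one pattern over samples. cyp-14A3, cyp-14A5 and cyp-35B1 were highest in replicate 3 of both groups, and for cyp-14A5 and cyp-35B1 the whole order of the replicates was the same in both groups (3, 4, 2, 1 and 3, 4, 1, 2, from high to low). cyp-36A1 was lowest in replicate 3 of both groups. The SD was 40.3% of the mean for cyp-35B1 in mtch-1(RNAi) and 58.9% in EV, against 13.5% for cyp-36A1 in mtch-1(RNAi) and 24.3% in EV. No label says what the replicate numbers stand for.

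**Figure D3:**
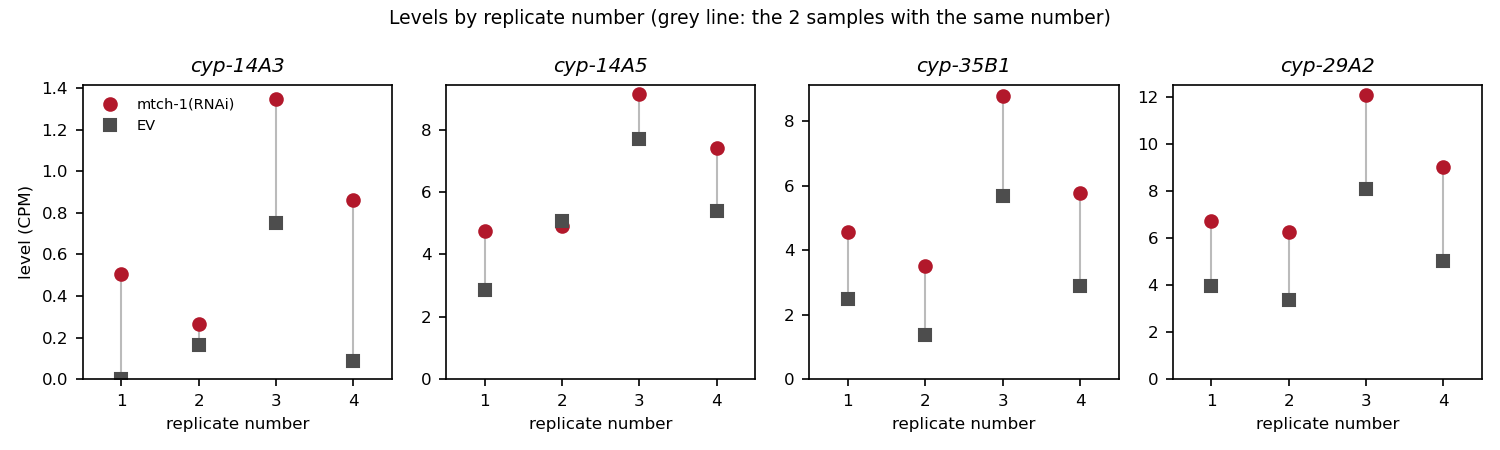
Level in CPM (linear axes from 0) against replicate number for cyp-14A3, cyp-14A5, cyp-35B1 and cyp-29A2, with mtch-1(RNAi) samples as red circles and EV samples as grey squares. Replicate 3 is the highest of its group in all 4 genes, and the mtch-1(RNAi) sample is above its same-numbered EV sample in every pair but replicate 2 of cyp-14A5.

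The likeness of other genes was measured as the root-mean-square distance between log2(CPM + 0.5) profiles over the 8 samples, each centred on its own mean. The measure was taken over all genes tested, and the closest to each called member are given. cyp-36A1 was closest to Y48G1BM.6 (distance 0.07) and fbxb-101 (0.12), cyp-14A1 to lad-2 (0.12) and gyg-3 (0.13), and cyp-14A2 to Y87G2A.25 (0.08) and acn-1 (0.12). cyp-35C1 was closest to lgc-9 (0.09) and M03F4.6 (0.10), neither of which passed the test itself. lgc-9 was scarce, at 1.01 CPM in mtch-1(RNAi) and 0.547 CPM in EV. Its fitted log2 fold change was 0.89, against 0.49 for cyp-35C1. The 0.5 CPM added in this measure narrows the differences of scarce genes, such as lgc-9 and cyp-14A3, so their distances are uncertain. cyp-14A4 was closest to F15B9.10 (0.18), which is far more abundant at 233 CPM in mtch-1(RNAi) and 113 CPM in EV, and to C40A11.8 (0.19). cyp-35A3 had no gene as close, with F22E5.13 at 0.30 and R07C12.3 at 0.32. Among the 10 genes the closest pair was the neighbours cyp-14A1 and cyp-14A2 (0.21), with cyp-35A2 and cyp-35C1, not neighbours, at 0.23. Over all genes tested, cyp-14A2 ranked only 100th in closeness to cyp-14A1, and cyp-14A1 ranked 113th in closeness to cyp-14A2. A P450 gene of family 29, cyp-29A2, was the closest of all genes to cyp-35B1 (0.18) and the second closest to cyp-14A3 (0.23). It was chosen after its values were seen, had 8.52 ± 2.66 CPM in mtch-1(RNAi) and 5.11 ± 2.10 CPM in EV (SD, n = 4), and rose only with the block (0.76; adjusted p = 0.000199; without it adjusted p = 0.071).

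Of the other 70 P450 genes 49 were tested, of which 6 rose (12.2%) and 1 fell, and the median log2 fold change was 0.12. The genes that rose were cyp-25A3 (0.79, SE 0.21; adjusted p = 0.0194), cyp-42A1 (0.67, SE 0.20; adjusted p = 0.0258), cyp-35A5 (0.63, SE 0.21; adjusted p = 0.044), cyp-29A3 (0.59, SE 0.19; adjusted p = 0.0459), cyp-37A1 (0.46, SE 0.11; adjusted p = 0.0115) and cyp-31A1, listed as a pseudogene (0.41, SE 0.13; adjusted p = 0.0315). The gene that fell was cyp-34A8 (-0.50, SE 0.12; adjusted p = 0.0122). The share that rose is close to the 10% of all genes tested. With the block 13 rose and 4 fell. On leaving out mtch-1(RNAi) replicate 2 the number that rose was 3, and on leaving out EV replicate 4 it was 1.

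Single samples decided most of these calls. That of cyp-29A3 was lost on leaving out any 1 of the 8 samples (adjusted p = 0.0513 to 0.105) and that of cyp-35A5 on leaving out any but mtch-1(RNAi) replicate 4 (0.060 to 0.117). For cyp-31A1 these were mtch-1(RNAi) replicates 2 and 4 and EV replicates 1, 3 and 4 (0.0696 to 0.0955). For cyp-42A1 they were mtch-1(RNAi) replicates 3 and 4 and EV replicates 1 and 4 (0.0549 to 0.072), and for cyp-25A3 EV replicates 1 (0.0536) and 4 (0.0647). cyp-37A1 and cyp-34A8 passed in all 16 alternatives. With all samples kept, the calls of cyp-35A5 and cyp-29A3 were also lost in DESeq2 (adjusted p = 0.0546 and 0.0868) and limma-voom (0.0594 and 0.0512). In edgeR with no filter on low counts both were lost too (0.0646 and 0.0888).

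Within family 35 the 6 genes outside the set were all scarce. cyp-35A5, next to cyp-35B1, had 2.82 ± 0.607 CPM in mtch-1(RNAi) and 1.82 ± 0.143 CPM in EV. cyp-35A4 (0.51, SE 0.32; adjusted p = 0.285) and cyp-35D1 (-0.07, SE 0.22; adjusted p = 0.863) did not pass the test, and cyp-35A1, cyp-35B2 and cyp-35D2 were under the count filter. cyp-35A1 had 0.202 ± 0.0343 CPM in mtch-1(RNAi) and 0.0897 ± 0.0528 CPM in EV (SD, n = 4). Of the large families, 10 genes of family 13 and 12 of family 33 were tested without a call in edgeR, and with the block 2 rose and 1 fell in family 13, and 1 rose and 1 fell in family 33.

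**Figure D4:**
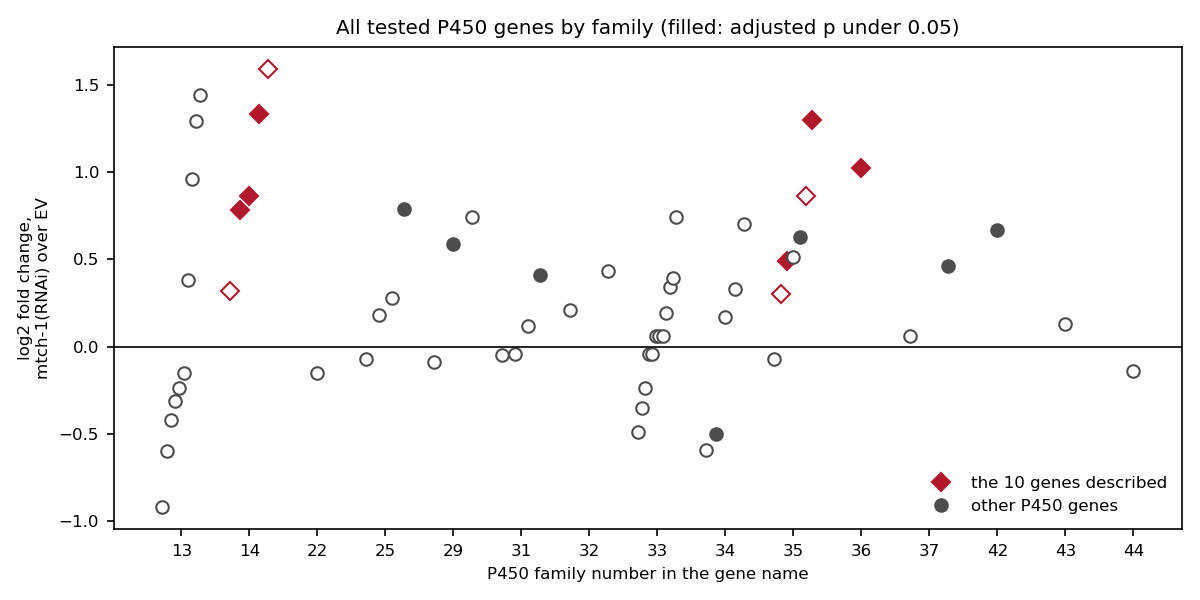
Log2 fold change of mtch-1(RNAi) over EV for every tested P450 gene, spread by the family number in its name. Red diamonds are the 10 genes described and grey circles the other 49, and filled symbols passed the edgeR test at an adjusted p under 0.05. All red diamonds lie above 0, and the grey circles scatter on both sides of it. The genes shown as red diamonds were chosen with earlier results of these data known.

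Among genes that serve P450 enzymes, the reductase gene emb-8 rose slightly, to 212 ± 10.9 CPM in mtch-1(RNAi) against 187 ± 6.56 CPM in EV (SD, n = 4; log2 fold change 0.18, SE 0.05; edgeR adjusted p = 0.0156). The cytochrome b5 genes did not pass, cytb-5.2 with 0.15 (adjusted p = 0.0582; 0.0315 with the block) and cytb-5.1 with -0.09 (adjusted p = 0.562). Of 5 flavin monooxygenase genes, another phase I enzyme family, fmo-1 alone rose (0.89, SE 0.24; adjusted p = 0.0198), against 10% of all genes tested. With the block 3 of the 5 rose, fmo-2 and fmo-5 as well, against 15% of all genes tested. The fmo-1 call did not survive leaving out EV replicate 1 (0.0549), 3 (0.0536) or 4 (0.0657). Of 28 tested efflux transporter genes of the pgp, mrp and haf groups, 2 rose (7.14%, against 10% of all genes tested) and 2 fell (against 13%). With the block 6 rose and 3 fell, against 15% and 17.1% of all genes tested. The 3 with the lowest p were mrp-7 (-0.27; adjusted p = 0.0022), mrp-2 (0.45; adjusted p = 0.0163) and haf-3 (0.14; adjusted p = 0.0252), the last not passing on leaving out mtch-1(RNAi) replicate 1 (0.0735) or EV replicate 3 (0.0637).

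Of 12 genes listed as regulators of P450 or detoxification genes, 2 rose (16.7%, against 10% of all genes tested). They were ahr-1, the aryl hydrocarbon receptor gene, at 0.921 ± 0.260 CPM in mtch-1(RNAi) and 0.447 ± 0.118 CPM in EV (SD, n = 4; 1.02, SE 0.34; adjusted p = 0.0463), and the nuclear receptor gene nhr-49 (0.13, SE 0.04; adjusted p = 0.0309). Leaving out replicate 2, 3 or 4 of either group (0.0669 to 0.117) or using DESeq2 (0.0891) lost the ahr-1 call, and leaving out mtch-1(RNAi) replicate 1 (0.0911) or EV replicate 2 (0.0517) or 3 (0.0639) lost that of nhr-49. With the block nhr-45 rose too, and nhr-8, a nuclear receptor gene of xenobiotic resistance, fell (-0.53; adjusted p = 0.00368; without the block 0.0549), as did elt-2 (-0.41; adjusted p = 0.0265; without the block 0.178). skn-1, daf-16, mdt-15, pqm-1, daf-12, aha-1 and nhr-28 did not pass in either fit. With the block 3 of the 12 thus rose and 2 fell, against 15% and 17.1% of all genes tested.

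Markers of the intestine, where many of these P450 genes are known to be expressed, had lower means in mtch-1(RNAi) than in EV. All 8 intestinal markers in the table had a log2 fold change below 0, from -0.39 to -0.05, of which erm-1 fell by the test (-0.22; adjusted p = 0.0107), and 5 of 8 fell with the block, against 17.1% of all genes tested. Their summed level was 812 to 978 CPM in mtch-1(RNAi) and 961 to 1230 CPM in EV, ranges that overlapped, and every marker was detected. All 4 body wall muscle markers had a log2 fold change above 0 (0.03 to 0.24). None passed the test, but with the block 3 rose (unc-54 0.23, adjusted p = 0.00815; unc-15 0.20, adjusted p = 0.00922; unc-22 0.23, adjusted p = 0.0423), against 15% of all genes tested. Germline markers summed to 2080 to 2210 CPM in mtch-1(RNAi) and 2260 to 2430 CPM in EV, ranges that did not overlap. All 5 of these markers had a log2 fold change below 0 as well (-0.26 to -0.07). By the test 2 of them fell, against 13% of all genes tested, glp-1 (-0.26, adjusted p = 0.00161) and gld-1 (-0.16, adjusted p = 0.0411). The gld-1 call was lost on leaving out any 1 sample but EV replicate 3 (adjusted p = 0.064 to 0.12). The sums of the muscle, hypodermis, neuron and pharynx markers overlapped between groups. Of 5 hypodermis markers 1 rose, dpy-7 (1.10; adjusted p = 0.0019), while the median log2 fold change of the 5 was -0.02. Of 5 neuron markers 1 had a log2 fold change above 0, and none passed the test. All 4 pharynx markers had one above 0 (0.05 to 0.77), of which 1 rose, pha-4 (0.59, adjusted p = 0.0147). Of all genes tested 10% rose. The part of tissue content in the P450 changes was not tested.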

How the data were processed

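RNA of 8 pooled whole-worm samples was measured. The submitters' processing notes name WBcel235, the aligner HISAT2 2.0.5, the counter featureCounts 1.5.0-p3 and DESeq2 with no version, and no settings. The authors deposited read counts per gene, used for all tests. They also deposited a size-factor normalized signal, FPKM values, log2 fold changes, p-values and gene lengths in bases, another unit the authors deposited. Of these the lengths gave the per-kilobase levels, and the log2 fold changes and p-values were only copied where named. The signal and FPKM values served to check units. Of 20871 genes, 20596 were named from the Ensembl annotation of the same build, whose gene spans are given 1-based, and 275 kept their sequence name. 0 columns of per-sample values lacked a sample.

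Samples were grouped and numbered by their titles. Nothing in the labels says that replicates were grown separately, and p-values therefore measure only the spread of these samples, possibly technical. No 2 samples of a group were closer than sampling noise (chi-square per degree of freedom 6.72 to 15.4). Same-numbered samples deviated together from their group means, with correlations of 0.399, 0.244, 0.279 and 0.227 for replicates 1 to 4 across genes. By the limit of 0.1 for every pair the numbers pair the samples, although no label states a shared day or plate.

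The test on counts was edgeR's quasi-likelihood F test (edgeR 4.0.16, R 4.3.3) after TMM scaling and the default count filter, adjusted by Benjamini-Hochberg over all genes tested. Standard errors were derived from the log2 fold change and its F value. Alternatives were other scalings and filters, DESeq2 1.42.0, limma-voom (limma 3.58.1), the replicate block and leaving out samples. The script was checked on simulated counts. The 10 genes and all lists were chosen with earlier results of these data known. Named genes are the 10, mtch-1, the 2 closest profiles of each called gene, the called genes of the lists (up to 3 by p for flavin monooxygenases and transporters) and markers. Comparisons of protein and promoter sequence were planned but not analysed here. Intervals and limits at a count of 0 cover counting error only.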

Additional observations from a re-analysis of the deposited data

Results flagged for a closer look

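In 2 of 22 groups of 4 samples examined for the 10 P450 genes and mtch-1, 1 sample stood far from the other samples of its group, where chance gives about 1 in 20 such groups. cyp-14A2 was 2.66 CPM in mtch-1(RNAi) replicate 2, and 4.55 to 4.73 CPM in the remaining samples of that group. Without replicate 2 its log2 fold change was 0.94. cyp-14A4 was 1.98 CPM in EV replicate 1, against 1.55 to 1.61 CPM in the other EV samples, and it rose with or without that sample.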

How the results depend on the processing

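All 10 P450 genes had a log2 fold change above 0 in every alternative that tested them, and cyp-14A1, cyp-14A4, cyp-35A3, cyp-35C1 and cyp-36A1 passed in all 16. Of these cyp-35C1 came closest to the limit, with a highest adjusted p of 0.0496 over the alternatives. The number that rose was 6, and 5 to 8 on leaving out single samples. With the replicate block cyp-14A3 (1.75), cyp-35A2 (0.30) and cyp-35B1 (0.92) passed, and 13 other P450 genes rose and 4 fell; no other call among the 10 changed. cyp-35A2 also passed with no count filter (0.31) and in DESeq2 (0.30). Without replicate 3 of both groups, chosen after seeing the data, cyp-35B1 passed (1.02) and cyp-14A2 did not (0.79). Leaving out single samples gave 0.72 to 0.94 for cyp-14A2, 1.13 to 3.08 for cyp-14A3, 0.11 to 0.55 for cyp-14A5 (never passing), 0.24 to 0.41 for cyp-35A2 and 0.57 to 1.31 for cyp-35B1, and 1 to 6 other P450 genes that rose and 1 to 2 that fell. The cause of these changes was not tested. cyp-14A3 was under the stricter count filter. The depth limits cyp-14A3 most, with at most 29 counts in a sample.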
